A study of Arabidopsis thaliana with 4 samples.

Results

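Genes of the plastid and mitochondrial genomes were examined in mRNA sequencing of Arabidopsis thaliana inflorescences. Members were the genes of the 3 deposited gene tables whose identifier begins with ATCG (plastid) or ATMG (mitochondrion). They numbered 91 of 13311 listed genes, 56 from the plastid and 35 from the mitochondrion. The samples were 2 libraries of wild-type Col-0 and 2 libraries of ndx1-4, a line of the same accession with the T-DNA insertion WiscDsLox344A04 in NDX, which encodes a homeodomain protein. All plants were 5 weeks old and no agent was applied. Each library was made from equal amounts of total RNA of 5 inflorescences of different plants, so a replicate is a pool. Polyadenylated RNA was selected with the TruSeq RNA kit. No source describes a count by strand, and therefore overlapping or antisense genes can share reads.

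Plastid genes are read by a plastid-encoded RNA polymerase, whose α subunit is the product of rpoA and which needs nuclear-encoded sigma factors, and by phage-type polymerases encoded in the nucleus. Most plastid genes stand in clusters that are transcribed together and then cut, spliced and edited. Mitochondrial genes are read by the phage-type polymerases only. In both organelles a poly(A) tail marks RNA for decay instead of stabilising it, so that oligo-dT selection keeps only part of organelle RNA. The values below are therefore levels in the polyadenylated fraction, and in whole inflorescences fewer organelle-rich cells and less organelle RNA per cell cannot be told apart.

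The tables list genes that differed between flowers and seedlings of one genotype or between the genotypes. Of the 91 members, 71 (48 plastid and 23 mitochondrial) stood in both tissue tables and so had counts in all 4 flower libraries. The genotype table listed RPOA, ABCI2 and RPS4, of which the last pair, both mitochondrial, added counts for all 4 libraries, making 73 members. Another 3 plastid genes and 1 mitochondrial gene had counts in the Col-0 libraries only. These were the tRNA genes ATCG00090 and ATCG00460, the 4.5S rRNA gene ATCG00960 and the NAD5 entry ATMG00060. A further 5 plastid and 9 mitochondrial genes had counts in the ndx1-4 libraries only, among them PSBA, PSAJ, NDHG, the 23S rRNA gene ATCG00950, ATP1, NAD1 and NAD3. A member without a value in one genotype was not analysed there. All 71 members of both tissue tables passed the filter of a mean of at least 10 counts.

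The libraries matched their labels. Counts of NDX were 430 (replicate 1) and 525 (replicate 2) in Col-0, against 73 and 108 in ndx1-4. The listed genes held between 10726926 and 13814929 counts per library. All 5 floral organ genes checked (AG, AP1, AP3, PI and SEP3) had counts in every library. After scaling, AP1 and PI were higher and AG and SEP3 lower in both ndx1-4 libraries than in both Col-0 libraries, and AP3 overlapped. Of the root markers, RCI3 had 65 to 82 counts and PIP2;4 was listed in the ndx1-4 libraries only, with 371 and 446. The 3 pollen markers were each higher in both ndx1-4 libraries than in both Col-0 libraries, where 27.9% of all genes were. Their summed scaled counts were 11933 and 10479 in Col-0, against 18336 and 13084 in ndx1-4. The 5 markers of green tissue had summed scaled counts of 321618 and 308851 in Col-0, against 304817 and 245749 in ndx1-4. Of these, LHCB1.1 and RBCS1A were lower in both ndx1-4 libraries, where 25.6% of all genes were, and the others overlapped. The part of these differences in the results below was not tested.

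Plastid genes held about 1% of the listed counts and mitochondrial genes about 0.1%. The plastid share was 0.984% and 0.898% in the Col-0 libraries and 1.02% and 1.20% in the ndx1-4 libraries. The mitochondrial share was 0.119% and 0.0698% in Col-0, against 0.0678% and 0.0673% in ndx1-4. It rests largely on ATMG00020, the mitochondrial entry with most counts, with 6872 and 4672 in Col-0, against 3035 and 3587 in ndx1-4. The share without ATMG00020 was not computed, and 15 of 23 mitochondrial members tested had log2 fold changes above 0. The genotypes did not overlap for either share, but 2 libraries against 2 cannot go below an exact two-sided permutation p of 0.333, which both reached. These shares count members listed for one genotype only, of which the 23S rRNA gene alone had 3859 and 6312 counts in ndx1-4. Over the genes of both tissue tables the plastid share was 1.18% and 1.08% in Col-0, against 1.16% and 1.37% in ndx1-4, and these ranges overlapped (exact two-sided permutation p = 0.667). The mitochondrial share over these genes was 0.142% and 0.0837% in Col-0, against 0.0750% and 0.0752% in ndx1-4, without overlap (exact two-sided permutation p = 0.333). With the nuclear copies described below counted with them, all listed mitochondrial genes held 0.128% and 0.0779% in Col-0, against 0.0832% and 0.0838% in ndx1-4. These ranges overlapped (exact two-sided permutation p = 1). Of these 29 copies only 14 had counts in all 4 libraries. The others were listed in ndx1-4 only and raised its share alone.

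A few transcription units held most of the plastid counts. The 11 genes from rpl23 to rpoA, which lie one after another on the minus strand between positions 77901 and 86143 of the plastid genome (TAIR10), held 33.4% to 36.0% of the counts of the 48 plastid members in each library. The neighbours ATPB and ATPE, which encode the β and ε subunits of the plastid ATP synthase, held 30.3% to 33.1%. TIC214 (ycf1), a subunit of the protein import machinery of the inner envelope, held 16.5% to 18.1%, and RPL32, a ribosomal protein, 2.73% to 3.07%. Together these 15 genes held 85.4% to 88.4%. The 6 photosystem II genes held 3.58% to 5.68%, and the 9 genes of the NADH dehydrogenase-like complex of the thylakoid (NDH), which feeds electrons into the plastoquinone pool, 2.85% to 3.10%.

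Levels were also compared per length. FPKM is the count per kilobase of effective length, as the authors scaled it to library totals within each table. Very short genes have small effective lengths and reached the highest values, namely RPL32 (159 bases, mean 30049 FPKM over 4 libraries), PSBM (105 bases, 14954 FPKM), the tRNA gene ATCG00390 (73 bases, 6453 FPKM), the tRNA gene trnH (ATCG00010, 5587 FPKM), RPL36 (4606 FPKM) and the RPS12 entry ATCG00905 (4008 FPKM). Levels were therefore compared among members with at least 300 bases of exon. Among the 37 such plastid genes the mean FPKM ranged from 2.63 to 3731 with a median of 84.0. ATPE was highest with 3731 FPKM, followed by RPL16 with 2645 FPKM, RPL14 with 2144 FPKM, rps3 (ATCG00800) with 1488 FPKM and ATPB with 1044 FPKM. At the other end were PSBA with 6.94 FPKM in its 2 libraries, NDHG with 6.79 FPKM in its 2, NDHD with 5.84 FPKM and RPOC2, the β″ subunit of the plastid polymerase, with 2.63 FPKM. PSBA, which encodes the D1 protein of photosystem II, had only 92 and 146 counts in ndx1-4 replicates 1 and 2. The nuclear PSBO1, a protein of the same complex, had 28552 and 29226 counts in these libraries, 1130 and 991 FPKM against 5.98 and 7.90 for PSBA.

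**Figure D1:**
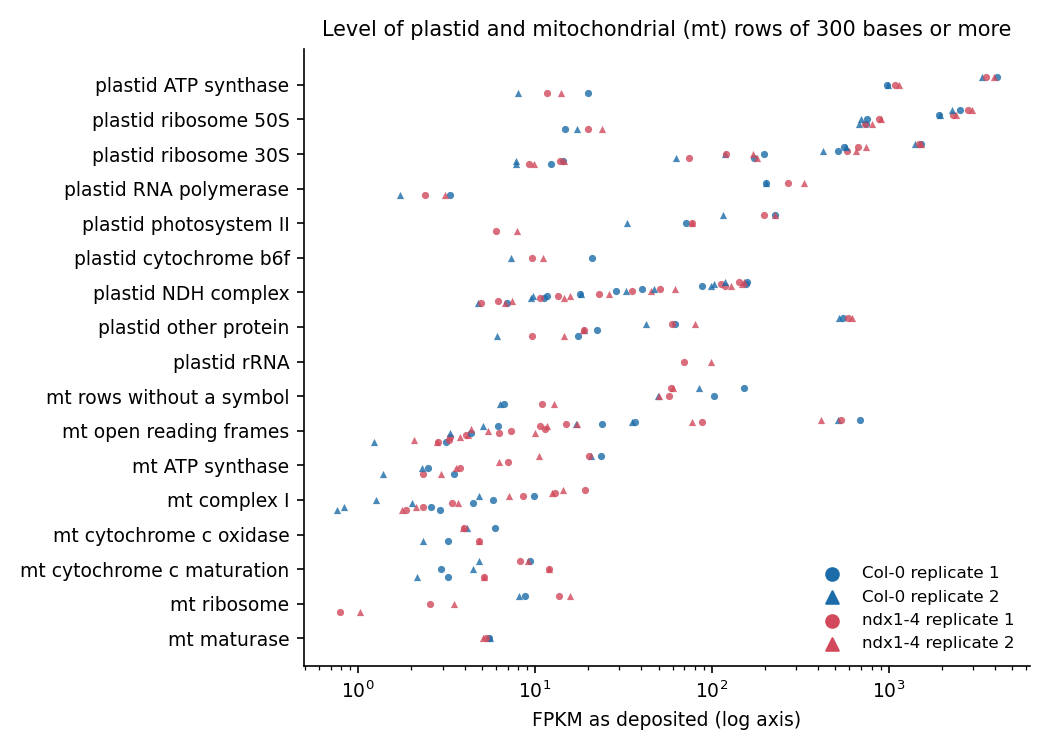
FPKM of members with at least 300 bases of exon, by role, on a log axis, with 1 point per library (blue Col-0, red ndx1-4; circles replicate 1, triangles replicate 2). FPKM was scaled within each table, so genes are to be compared here and not genotypes. ATP synthase and ribosomal genes of the plastid reach the highest values (ATPE 3731, RPL16 2645), and most mitochondrial genes lie between 1 and 20.

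Genes that overlap or belong to one transcript did not have equal levels. Per kilobase of exon, ATPE had 1.82 and 1.48 times the counts of ATPB in the Col-0 libraries and 1.42 and 1.48 times in ndx1-4. The size of such ratios depends on the length used, since FPKM takes effective length. ATPE had 4084 and 3373 FPKM in Col-0 and 3539 and 3930 in ndx1-4. ATPB had 972 and 986 FPKM in Col-0 and 1079 and 1140 in ndx1-4. PSBD, the D2 protein of photosystem II, had 2.92 and 3.14 times the counts of its overlapping neighbour PSBC, the CP43 antenna protein, in Col-0 and 2.33 and 2.67 times in ndx1-4. The mRNA of the ribosomal protein S12 is joined by trans-splicing from separate transcripts and is listed as a pair of entries. Its exon 1 entry, ATCG00065, had 26 and 14 counts in Col-0, against 29 and 39 in ndx1-4. The entry of the later exons, ATCG00905, had 1706 and 1540 counts in Col-0, against 1679 and 2593 in ndx1-4. Per kilobase of exon the later exons were 25.6 to 48.6 times higher across the 4 libraries. The difference was smaller by FPKM, as the exon 1 entry has only 114 bases. ATCG00065 had 372 and 166 FPKM in Col-0 and 371 and 421 in ndx1-4. ATCG00905 had 4245 and 3176 FPKM in Col-0 and 3738 and 4871 in ndx1-4.

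Runs of adenines inside the genes were examined because oligo-dT also anneals to such stretches. The longest runs among the plastid members were 14 bases in RPOA and 13 bases in TIC214, RPOC2 and CLPP1, against 4 bases in PSBA. Windows of 60 bases around the longest run are shown for the high genes RPOA and TIC214 and for RPOC2 and PSBA, the genes of low level, as 5′ to 3′ sequence of the coding (minus) strand of the RefSeq plastid genome (TAIR10.1), with the run in capitals. They lie at plastid:78072-78131, plastid:125845-125904, plastid:17903-17962 and plastid:1340-1399, each inside the coding sequence.
RPOA: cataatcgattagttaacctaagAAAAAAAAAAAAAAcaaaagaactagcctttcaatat
TIC214: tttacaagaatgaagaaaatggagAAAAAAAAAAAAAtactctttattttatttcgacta
RPOC2: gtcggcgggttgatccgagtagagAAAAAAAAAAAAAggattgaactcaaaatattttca
PSBA: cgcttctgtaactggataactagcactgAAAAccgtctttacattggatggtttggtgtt

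RPOC2 thus had a run as long as that of TIC214 and the lowest level of all 37 plastid genes compared. Across the 38 plastid members whose gene is at least 300 bases long, Spearman's rho between the longest run and the mean FPKM was 0.00312, and between the share of adenine in the gene and FPKM it was 0.498. With counts per kilobase of exon in place of FPKM these values were -0.00903 and 0.423. The points are genes of one genome that share libraries, base composition and transcripts, so these values are descriptions. Runs and shares of adenine were taken over the whole gene, introns included. Whether priming inside the genes shaped the levels was not tested. The longest run had a median of 6 bases both over the 49 plastid protein-coding members and over all 86 annotated plastid protein-coding genes. The median share of adenine was 32.5% and 31.3%.

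The genotypes were compared gene by gene with the quasi-likelihood test of edgeR, fitted over all 7981 genes of both tissue tables, with Benjamini-Hochberg adjustment over all of them. None of the 48 plastid members passed an adjusted p of 0.01, where 0.0877% of all genes did (7 genes). DESeq2 also called none at 0.01, where it called 2.59% of all genes. At an unadjusted p below 0.05, 12 plastid members were higher in ndx1-4, where 10.6% of all genes were, and 0 were lower, where 8.7% were. The log2 fold change was above 0 for 41 of 48 plastid members, where it was for 52% of all genes, with a median of 0.28 against 0.013 over all genes. After scaling, 21 plastid members had both ndx1-4 libraries above both Col-0 libraries, where 27.9% of all genes had, and 1 (YCF10) had both below, where 25.6% had. The plastid median was 0.12 when Col-0 replicate 2 was left out and 0.14 when ndx1-4 replicate 2 was.

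**Figure D2:**
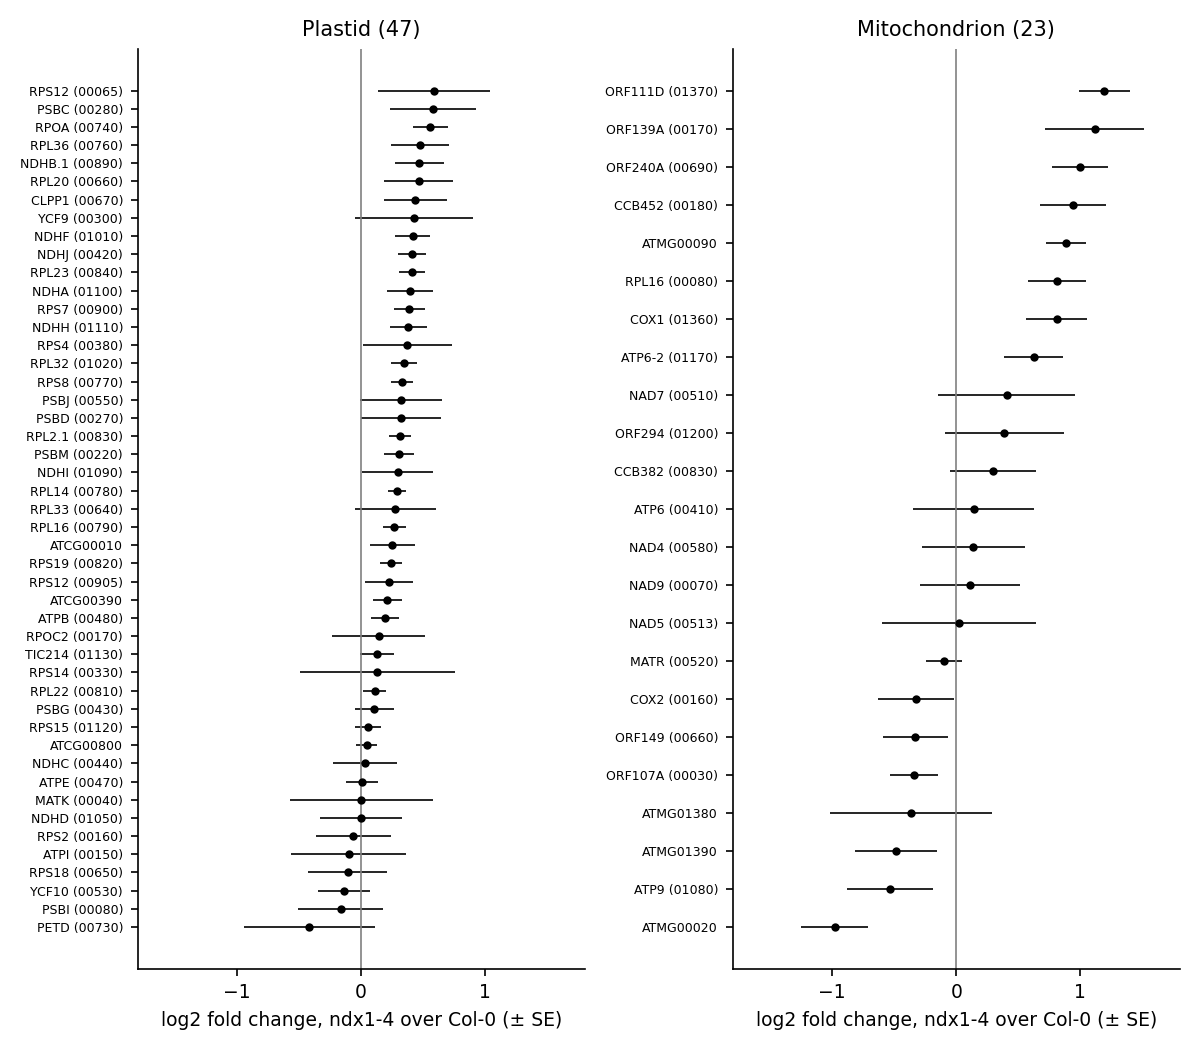
Log2 fold change of ndx1-4 over Col-0 with its standard error for 47 plastid and 23 mitochondrial members with counts in all 4 libraries, sorted by value (edgeR, 2 libraries per genotype; digits are the end of the identifier). Plastid values lie from -0.42 to 0.59 with 40 above 0, and mitochondrial values from -0.98 to 1.19 with 15 above 0.

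The rpl23 to rpoA cluster had values above 0 throughout. RPOA, the last gene of the cluster and the only plastid gene of the genotype table, had 1446 and 1647 counts in Col-0, against 2010 and 3070 in ndx1-4, giving a log2 fold change of 0.56 ± 0.14 (SE) at an adjusted p of 0.161 (edgeR; 0.0489 with DESeq2). The log2 fold change was 0.35 when ndx1-4 replicate 2 was left out. Both ndx1-4 libraries were above both Col-0 libraries after scaling, and ndx1-4 replicate 2 was the highest. RPL23, the first gene, had 678 and 823 counts in Col-0, against 933 and 1275 in ndx1-4, which is a log2 fold change of 0.41 ± 0.10 (SE). RPL36 had 233 and 371 counts in Col-0, against 345 and 581 in ndx1-4, giving a log2 fold change of 0.47 ± 0.24 (SE). Leaving out a library put it between 0.19 (ndx1-4 replicate 2) and 0.71 (ndx1-4 replicate 1), and it was 0.29 when Col-0 replicate 1 was left out. All 11 genes of the cluster had values above 0 (52% of all genes), and 9 were higher with non-overlapping libraries (27.9% of all genes), RPL36 only by 309 against 308 scaled counts. The smallest difference was that of rps3 (ATCG00800), with 6670 and 7424 counts in Col-0, 7277 and 8825 in ndx1-4 and a log2 fold change of 0.045 ± 0.085 (SE), followed by RPL22 with 0.11 ± 0.092 (SE). Both lie in the middle of the cluster, between genes of higher values. The cluster was chosen with its values known and its genes share a transcript, so they are not independent.

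**Figure D3:**
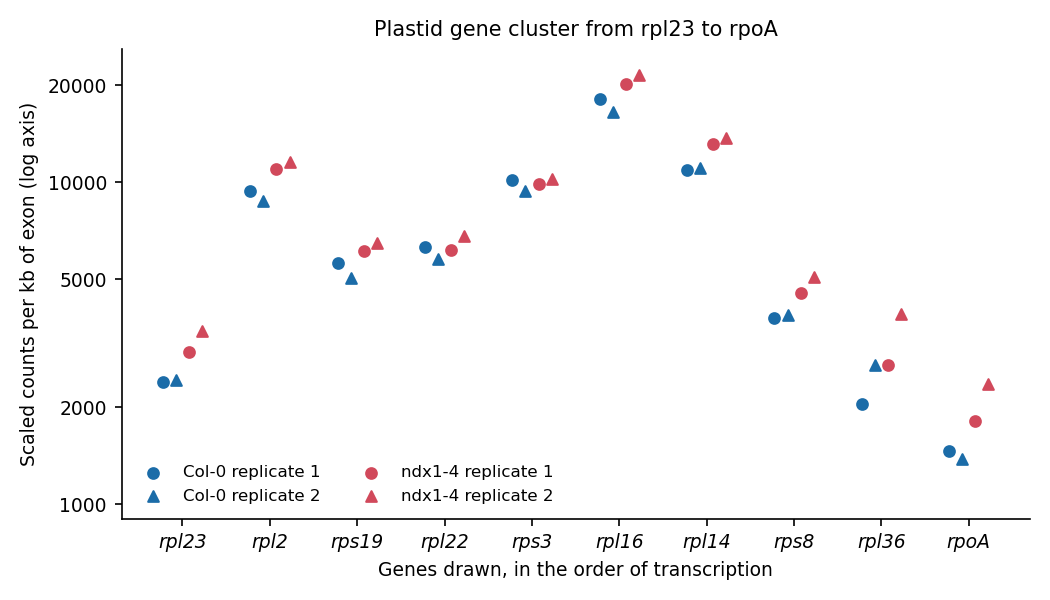
Scaled counts per kilobase of exon on a log axis for 10 genes of the cluster in the order of transcription, 1 point per library. By this measure levels peak at rpl16 with 16586 to 21547 and end at rpoA with 1383 to 2368. It does not allow for the small effective lengths of short genes such as rpl36. The ndx1-4 libraries lie above both Col-0 libraries for 8 of these genes but not for rpl22 and rps3.

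Along the cluster the level varied more between genes than between libraries. In Col-0 replicate 1 scaled counts per kilobase of exon were 2404 at rpl23, 9366 at rpl2, 18169 at rpl16, 10932 at rpl14 and 1461 at rpoA. This measure does not allow for the small effective lengths of short genes. By mean FPKM the highest gene of the cluster was RPL36 (114 bases) with 4606, then RPL16 with 2645 and RPS19 (279 bases) with 2638. RPOA was the lowest with 251 FPKM. RPL2.1 and RPL23 lie in the inverted repeat of the plastid genome and occur there in exact duplicate, as do NDHB.1, RPS7, RPS12 (ATCG00905) and the rRNA genes ATCG00950 and ATCG00960. Reads of such copies cannot be assigned to one of them.

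Plastid genes of each role are given next. All 9 genes of the large ribosomal subunit had log2 fold changes above 0 (median 0.31), and 10 of 12 entries of the small subunit did (median 0.23). The ribosomal protein gene RPL32 is an example outside the cluster whose ndx1-4 libraries were both above Col-0. It had 2980 and 3114 counts in Col-0, against 3751 and 4880 in ndx1-4. Of 9 NDH genes 8 had values above 0 (median 0.38) and 5 were higher with non-overlapping libraries (27.9% of all genes). NDHB.1 had 156 and 153 counts in Col-0, against 197 and 281 in ndx1-4, giving a log2 fold change of 0.47 ± 0.20 (SE). The 3 ATP synthase genes had a median of 0.0088. ATPB had 22095 and 27023 counts in Col-0, against 27425 and 34597 in ndx1-4, which is a log2 fold change of 0.19 ± 0.11 (SE), and ATPE had 10703 and 10667 in Col-0, against 10367 and 13644 in ndx1-4, which overlapped after scaling. The tRNA genes ATCG00010 and ATCG00390 had log2 fold changes of 0.25 ± 0.18 (SE) and 0.21 ± 0.12 (SE), which were 0.11 and 0.12 when ndx1-4 replicate 2 was left out. That of ATCG00010 was 0.44 when Col-0 replicate 1 and 0.082 when Col-0 replicate 2 was left out.

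The photosystem II genes had a median log2 fold change of 0.32. PSBC had 1513 and 853 counts in Col-0, against 1826 and 2201 in ndx1-4, giving a log2 fold change of 0.58 ± 0.35 (SE) that was 1.22 when Col-0 replicate 1 was left out and 0.13 when replicate 2 was. PSBD had 3299 and 2003 counts in Col-0, against 3175 and 4384 in ndx1-4. PSBM had 966 and 1099 counts in Col-0, against 1165 and 1671 in ndx1-4. For all 6 genes Col-0 replicate 1 was above Col-0 replicate 2 after scaling, by a median of 0.88 on the log2 scale but only 0.080 for PSBM, and ndx1-4 replicate 2 was above ndx1-4 replicate 1, by a median of 0.23. The same order held widely outside the cluster, where Col-0 replicate 1 was higher for 31 of 37 plastid members (median 0.42 on the log2 scale) and ndx1-4 replicate 2 for 36 of 37 (median 0.27). For the 11 cluster genes the medians were 0.078 and 0.089, and nuclear genes had a median near 0 in both genotypes. The lowest plastid values came from genes with the same order of replicates. PETD, subunit IV of the cytochrome b6f complex, had 85 and 36 counts in Col-0, against 44 and 60 in ndx1-4, giving a log2 fold change of -0.42 ± 0.53 (SE). In PETD the Col-0 libraries stood on both sides of the ndx1-4 libraries. PSBI, a small photosystem II subunit, had 73 and 51 counts in Col-0, against 53 and 72 in ndx1-4, and RPS18 had 196 and 143 in Col-0, against 134 and 224 in ndx1-4. Their libraries overlapped between genotypes. YCF10 (cemA), an envelope membrane protein, had 98 and 100 counts in Col-0, against 92 and 108 in ndx1-4. Among genes in 1 genotype, the 4.5S rRNA gene had 123 counts in Col-0 replicate 1 and 6 in replicate 2.

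Mitochondrial genes were at lower levels, and their values fell on both sides of 0. The median mean FPKM of the 34 members of at least 300 bases was 6.18, from 0.905 for RPL2 to 540 for ORF107A. None of the 23 members tested passed an adjusted p of 0.01 in edgeR, where 0.0877% of all genes did, and 1 did in DESeq2, where 2.59% did. In edgeR 8 were higher and 1 lower at an unadjusted p below 0.05, where 10.6% and 8.7% of all genes were. The median log2 fold change was 0.14, with 15 of 23 above 0 (52% of all genes), and 8 members were higher and 5 lower with non-overlapping libraries, where 27.9% and 25.6% of all genes were. Without Col-0 replicate 1 the median was 0.86, and without Col-0 replicate 2 it was -0.21, since 22 of the 23 members were higher in Col-0 replicate 1 than in replicate 2.

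ATMG00020, ATMG01390 and ORF107A, the mitochondrial entries with most counts, had fold changes below 0, as had ATMG01380 and ATP9. ATMG00020, a gene of 2568 bases to which the files give no symbol, had 6872 and 4672 counts in Col-0, against 3035 and 3587 in ndx1-4. The libraries did not overlap after scaling, and the Col-0 libraries also stood apart from each other. Its log2 fold change was -0.98 ± 0.27 (SE), with an adjusted p of 0.177 in edgeR and 0.00434 in DESeq2, which made it the only member called at 0.01 by DESeq2. When Col-0 replicate 1 was left out the log2 fold change was -0.51, and when replicate 2 was it was -1.33. ATMG01390 had 3345 and 2000 counts in Col-0, against 2149 and 2162 in ndx1-4, and ATMG01380 had 116 and 34 in Col-0, against 59 and 76 in ndx1-4. These neighbours have the lengths (1935 and 118 bases) and the spacing (170 bases) of the genes of the 18S and 5S rRNA in the RefSeq mitochondrial genome, although the files give them no name. Their log2 fold changes were -0.49 ± 0.33 (SE) and -0.37 ± 0.65 (SE), and both were above 0 without Col-0 replicate 1, at 0.10 and 0.97. ORF107A had 964 and 876 counts in Col-0, against 850 and 758 in ndx1-4, which overlapped after scaling, with a log2 fold change of -0.34. With a library left out this was -0.12 (Col-0 replicate 1), -0.53 (Col-0 replicate 2), -0.55 (ndx1-4 replicate 1) and -0.15 (ndx1-4 replicate 2). ATP9, the c subunit of the mitochondrial ATP synthase, had 107 and 114 counts in Col-0, against 102 and 64 in ndx1-4, which is a log2 fold change of -0.53 ± 0.35 (SE) that was -0.14 when ndx1-4 replicate 2 was left out and -1.04 when replicate 1 was.

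The 4 highest values among members with a mean of at least 50 counts were those of ORF111D, ORF240A, CCB452 and ATMG00090. ORF111D had 56 and 65 counts in Col-0, against 149 and 155 in ndx1-4, giving a log2 fold change of 1.19 ± 0.20 (SE) at an adjusted p of 0.106 (edgeR; 0.0237 with DESeq2). Its replicates were close in both genotypes, and the ndx1-4 libraries were more than the replicate difference above the Col-0 libraries. ORF111D lies next to ATMG01380, which had the opposite sign. ORF240A had 54 counts in each Col-0 library and 105 and 135 in ndx1-4, which is a log2 fold change of 0.996 ± 0.228 (SE). Its genotypes did not overlap. CCB452 (ccmFC), needed for attaching heme to cytochrome c, had 64 and 52 counts in Col-0, against 114 and 135 in ndx1-4, which is a log2 fold change of 0.94 ± 0.27 (SE). ATMG00090, which has no symbol and overlaps RPL16 by 134 bases, had 154 and 176 counts in Col-0, against 283 and 394 in ndx1-4, which is a log2 fold change of 0.88 ± 0.16 (SE) at an adjusted p of 0.108 (edgeR; 0.0179 with DESeq2). In the RefSeq mitochondrial genome the ribosomal protein gene rps3 overlaps rpl16 by the same 134 bases and has 3254 bases, against 3252 for ATMG00090. RPL16 itself, a ribosomal protein gene, had a log2 fold change of 0.81, and COX1, subunit 1 of cytochrome c oxidase, had 75 and 65 counts in Col-0, 125 and 149 in ndx1-4 and also 0.81. The 4 entries of complex I tested (NAD4, NAD5, NAD7 and NAD9) ranged from 0.022 to 0.41, each with overlapping libraries.

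**Figure D4:**
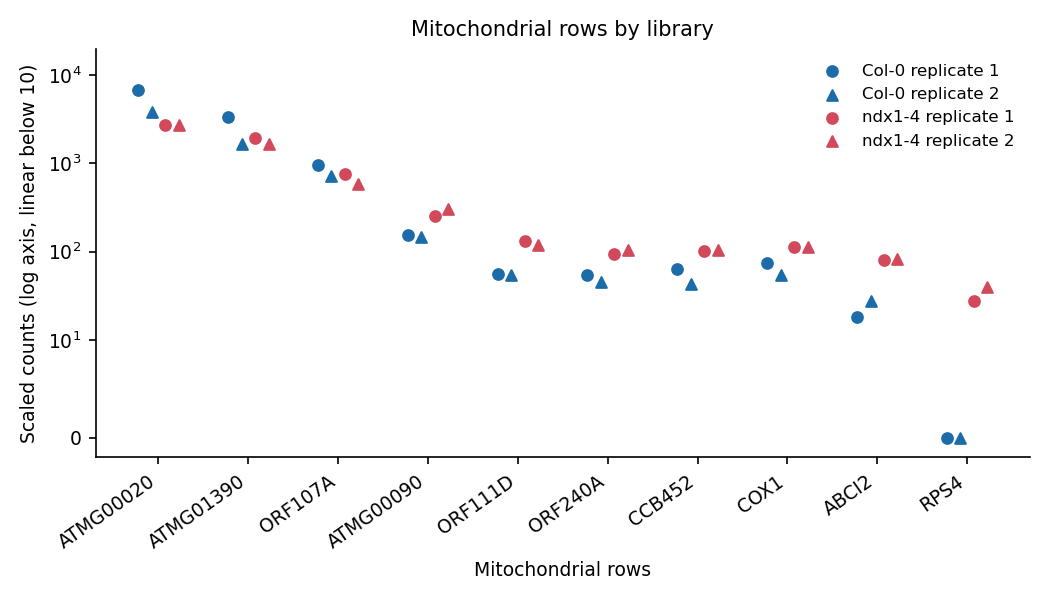
Scaled counts of 10 mitochondrial entries in the 4 libraries, on an axis that is logarithmic above 10 and linear below. ATMG00020 lies lower in both ndx1-4 libraries, those from ATMG00090 to ABCI2 lie higher in both ndx1-4 libraries, and RPS4 is at 0 in both Col-0 libraries.

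ABCI2 and RPS4 entered only through the genotype table, so their difference between genotypes chose them and is given as a description. ABCI2 (ccmB), an inner membrane protein of cytochrome c maturation, had 18 and 33 counts in Col-0, against 89 and 107 in ndx1-4, 3.55-fold higher after scaling. RPS4 of the mitochondrion, a protein of the small ribosomal subunit, had 0 counts in both Col-0 libraries and 31 and 52 in ndx1-4. This was at least 12.3-fold higher when the Col-0 libraries are set to a floor of 3 counts each. This bound was 14.5 when ndx1-4 replicate 1 was left out and 10.1 when replicate 2 was.

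Reads of mitochondrial genes can also fall on nuclear copies. Chromosome 2 carries a large insertion of mitochondrial DNA near its centromere, and 29 listed nuclear genes between positions 3240494 and 3498780 matched the RefSeq mitochondrial genome over at least 80% of their length with 99.8% to 100% identity, 11 of them without a difference. No listed nuclear gene matched the plastid genome in this way. The copy of rps4, AT2G07734, had 39 and 30 counts in Col-0, against 59 and 62 in ndx1-4. It differs from the mitochondrial genome at 1 of 1388 bases, G1375A, counted from the start of AT2G07734 with the mitochondrial base first, and this base lies outside rps4. The 60 bases around it are shown because they hold the only letter that separates the copies, given in capitals, 5′ to 3′ along AT2G07734. The mitochondrial stretch is on the plus strand at mitochondrion:161308-161367 of the RefSeq sequence and the nuclear stretch on the minus strand at chr2:3472305-3472364 (TAIR10.1).
Mitochondrial genome: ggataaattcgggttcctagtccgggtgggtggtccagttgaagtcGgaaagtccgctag
Chromosome 2: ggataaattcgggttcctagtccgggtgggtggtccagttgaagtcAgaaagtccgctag

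By the RefSeq sequence, reads from within rps4 cannot be told apart between these places. The mitochondrial sequence used for counting is another one and was not compared with the copy. The scaled sum of both entries was 39.0 and 24.9 in Col-0, against 80.5 and 87.0 in ndx1-4, a smaller difference than that of RPS4 alone. RPS4 was chosen by its difference between genotypes, and the sum carries that choice, so it is given as a description. ATP9 and its copy AT2G07671, which had 184 and 137 counts in Col-0, against 159 and 177 in ndx1-4, had a scaled sum of 291 and 209 in Col-0, against 233 and 184 in ndx1-4, and these overlapped. Of the 29 nuclear copies 14 had counts in all 4 libraries. Their median log2 fold change was 0.43, with 10 of 14 above 0 (52% of all genes), and 8 were higher and 0 lower with non-overlapping libraries, where 27.9% and 25.6% of all genes were. None passed an adjusted p of 0.01 in edgeR or DESeq2, where 0.0877% and 2.59% of all genes did. At an unadjusted p below 0.05 in edgeR 2 were higher and 0 lower, where 10.6% and 8.7% of all genes were.

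Nuclear genes that serve organelle transcription and RNA decay were examined beside the members. Of a list of 24 (sigma factors, phage-type polymerases, polymerase-associated proteins, polynucleotide phosphorylases and the ribonuclease RNR1), 11 had counts in all 4 libraries. Their log2 fold changes lay between -0.15 and 0.11 with a median of -0.11. After scaling, 5 of 11 (SIG1, RPOTm, RPOTmp, cpPNPase and pTAC10) were lower and 1 (RNR1) higher with non-overlapping libraries, where 25.6% and 27.9% of all genes were. None passed an adjusted p of 0.01 in edgeR or DESeq2, where 0.0877% and 2.59% of all genes did. None had an unadjusted p below 0.05 in edgeR, where 10.6% of all genes were higher and 8.7% lower. RPOTp, the phage-type polymerase of plastids, had 1233 and 1453 counts in Col-0, against 1375 and 1609 in ndx1-4, which is a log2 fold change of 0.010 ± 0.071 (SE). RPOTm, its mitochondrial counterpart, had 657 and 765 counts in Col-0, against 656 and 758 in ndx1-4, with -0.15 ± 0.079 (SE). The sigma factor SIG1 had 1070 and 1291 counts in Col-0, against 1111 and 1376 in ndx1-4, with -0.068 ± 0.075 (SE). The chloroplast polynucleotide phosphorylase cpPNPase, which adds and removes RNA tails, had 1153 and 1432 counts in Col-0, against 1222 and 1385 in ndx1-4, with -0.12 ± 0.074 (SE).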

How the data were processed

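Sample labels gave the groups and the replicate numbers. By the study's methods, single-end reads of poly(A)-selected RNA were quantified with Salmon against Araport11 genes with correction for GC content. The deposited count columns hold estimated counts of Salmon, already rounded, and the FPKM columns were scaled by the authors within each table, by a factor that differed by 1.08 to 1.10 between the genotype and the tissue tables. FPKM was used to compare levels between genes and to recover the scaling, not to compare genotypes. Each of the 3 gene tables holds only genes past the authors' threshold. The deposited fold change and p-value columns and the table of transposable elements were not used, nor were 8 seedling columns of other samples. Counting of near-identical copies is not described per gene, and strand was not used.

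Counts were joined over the tables, which held equal counts for shared genes (321 of 321 in Col-0, 276 of 276 in ndx1-4). Scaled counts are counts divided by 1, 1.20, 1.12 and 1.31 for Col-0 replicates 1 and 2 and ndx1-4 replicates 1 and 2, the ratios of count to FPKM in the genotype table relative to Col-0 replicate 1. The quasi-likelihood test (glmQLFit, glmQLFTest) of edgeR 4.0.16 in R 4.3.3 was run on 7981 genes that stand in both tissue tables and average 10 counts or more, with genotype as the only term, called at an adjusted p below 0.01. DESeq2 1.42.0, other scalings, other filters, the genes of the genotype table added, a threshold of 0.05, the replicate number as a block and each library left out were the alternatives. The fits were tested on simulated data. Shares were compared with an exact permutation test. Standard errors are of the fit, and p-values measure the spread between pools of plants. Counts allow counting error only to be judged, since reads carry no molecular identifiers.

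Plastid coordinates of 52 of 56 members equal those of RefSeq (TAIR10.1). The RefSeq mitochondrial sequence is another one than that of the files, so the files' mitochondrial positions were not used with it. Nuclear copies were found with blastn 2.17.0 at an identity of at least 95%. Named members were, for each genome, the 6 highest in FPKM, the 4 highest and 4 lowest fold changes with a mean of at least 50 counts, those called by edgeR or DESeq2 and those of the genotype table. Values of 1 plastid gene are not reported here by themselves. Others are named as examples, chosen after their values were seen. Members and lists were chosen with earlier results of these data known. Python 3.11.15 with pandas 2.3.3, numpy 2.4.6, scipy 1.17.1 and matplotlib 3.10.9 was used.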

Additional observations from a re-analysis of the deposited data

How the results depend on the processing

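No plastid member was called at 0.01 under any alternative tried, and mitochondrial calls numbered 0 except for 1 with DESeq2, ATMG00020 (log2 fold change -0.99). Over all genes the count of calls was 7, and it was 199 with DESeq2, 22 with the genes of the genotype table added, 30 at an adjusted p below 0.05 and 0 without any one library. With the replicate block it was 281, none of them a member. The labels do not say what a replicate number shares, and deviations of libraries with the same number correlated at 0.455 over 7057 genes but at -0.278 over the 62 members among them. The plastid median log2 fold change (0.28) was 0.24 to 0.285 under other scalings, filters, tools and the block, and 0.12 to 0.40 with a library left out. The mitochondrial median (0.14) was 0.22 with the block and 0.22 at a mean of at least 50 counts, and ranged from -0.21 to 0.86 with a library left out. With the genes of the genotype table added it was 0.30. Those genes, here ABCI2 and RPS4, had been chosen by their difference between genotypes. This value therefore carries that choice, as does the count of 22 calls over all genes. The median of the 11 nuclear genes of organelle expression (-0.11) was -0.126 with TMM scaling, -0.125 with TMM scaling over nuclear genes, -0.153 with total-count scaling and -0.089 to -0.060 with a library left out. With a library left out, log2 fold changes of named members reversed for PSBI (-0.51 to 0.27), RPS18 (-0.43 to 0.29), PETD (-0.99 to 0.51), ATMG01380 (-1.06 to 0.97) and ATMG01390 (-0.91 to 0.10). All other values of named members kept their sign and side of the threshold (257 values). The depth limits low members, of which ORF111D had 56 to 155 counts.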
